A study of Drosophila melanogaster with 6 samples.

Results

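Aminoacyl-tRNA synthetases load each tRNA with its amino acid, and the 33 genes described here are the protein-coding genes of the dm6 annotation whose symbol joins one or more amino acid codes to RS, of 13945 protein-coding genes on the 6 chromosome arms. Symbols ending in -m name the 15 mitochondrial genes, and the other 18 are called cytosolic here. The rule used symbols only and no measured value. It leaves out alpha-PheRS and beta-PheRS, which encode the subunits of the cytosolic phenylalanine enzyme, and Slimp, a paralog of the mitochondrial seryl enzyme.

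The study asked where Dwg, a zinc finger protein also known as Zw5 and described as an insulator protein, sits on chromatin. S2R+ cells, which come from an embryonic Drosophila culture, expressed Flag-Dwg and were used for chromatin immunoprecipitation and sequencing (ChIP-seq). The series holds 2 Flag-Dwg ChIP libraries, 2 IgG control libraries and 2 input libraries, all from S2R+ cells, and the antibody label of both inputs names dwg1 although their titles call them input. Only summit lists of the Flag-Dwg ChIP were used, 1 called against the IgG control (10950 summits) and 1 against input (12971 summits), with no value per library, so no replicate error and no p-value can be given and the depth of each library is unknown. Flag-Dwg was made from an introduced construct, and an anti-Flag ChIP from cells without it was not analysed here. The score of a summit is the −log10 of its MACS2 q-value, from 1.31 to 905 in the list against IgG, and it ranks summits within a list only.

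Cytosolic synthetases charge tRNAs for ribosomes of the cytoplasm, and their mitochondrial relatives, also encoded in the nucleus, charge the tRNAs of the organelle. Several cytosolic enzymes, with scaffold proteins named AIMP, are held together in a multi-synthetase complex that has been described best in mammals. Uncharged tRNA is read by the kinase Gcn2, which slows initiation when amino acids run short. Insulator proteins are DNA-binding proteins that can block an enhancer from acting on a promoter, and in flies many of them sit close to transcription start sites.

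The 5 highest summits at synthetase genes had scores above 100 and belonged to AlaRS-m, TyrRS-m, GluProRS, LeuRS and SerRS-m. Letters shared by 3 of these summits are shown first, because that word was at the 3 highest summits of the family. It was at no summit of the family below 100, where 0.757% to 1.93% of all summits had it, depending on the score class. Each stretch below is written along the strand of the synthetase gene, from NCBI's copy of the assembly, and was kept short of long untranslated sequence. In the first pair, capitals mark the word GAATGGCA or its reverse complement TGCCATTC. It was the 8-letter word with the largest difference in count between summit and flank over all summits scoring at least 100. The 5 summits above were among them, and the scan was added after the data had been seen. The AlaRS-m stretch spans chr3L:5146051-5146114 on the plus strand with the summit at base 22. The GluProRS stretch spans chr3R:23958599-23958680 on the minus strand with the summit at base 22.
AlaRS-m: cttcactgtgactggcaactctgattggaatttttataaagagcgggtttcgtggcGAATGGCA
GluProRS: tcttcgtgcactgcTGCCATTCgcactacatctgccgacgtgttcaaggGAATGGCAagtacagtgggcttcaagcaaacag

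In the next pair, capitals mark the word with the next largest excess, AACAGCTG or its reverse complement CAGCTGTT. The ThrRS stretch spans chr2L:12103263-12103383 on the plus strand and the ArgRS-m stretch chr3R:7886989-7887074 on the plus strand, each with the summit at base 61.
ThrRS: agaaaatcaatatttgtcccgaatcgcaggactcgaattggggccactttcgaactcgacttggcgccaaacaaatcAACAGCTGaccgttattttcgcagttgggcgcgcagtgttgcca
ArgRS-m: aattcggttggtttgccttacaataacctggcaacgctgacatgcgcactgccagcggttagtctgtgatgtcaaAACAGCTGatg

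The last set has neither word and is shown because these summits were nearest to the genes' own starts. The LeuRS stretch spans chr2L:3514467-3514562 on the minus strand with the summit at base 36, LysRS chrX:9608855-9608929 on the minus strand with the summit at base 61, and IleRS-m chr3L:16100196-16100316 on the plus strand with the summit at base 61.
LeuRS: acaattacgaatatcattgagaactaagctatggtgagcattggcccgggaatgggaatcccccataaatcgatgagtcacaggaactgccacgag
LysRS: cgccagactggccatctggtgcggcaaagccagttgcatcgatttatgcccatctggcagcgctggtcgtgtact
IleRS-m: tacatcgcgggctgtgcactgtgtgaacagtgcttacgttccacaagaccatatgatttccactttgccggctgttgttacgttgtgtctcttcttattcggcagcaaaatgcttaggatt

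Most synthetase genes had a summit between their limits or in the 1000 bp to either side. Against IgG, 26 of 33 genes (78.8%) did, beside 52.1% of all protein-coding genes, with 14 of 18 cytosolic genes (77.8%) and 12 of 15 mitochondrial genes (80%). Against input, 28 genes (84.8%) did, beside 55.5% of all genes, and 29 genes (87.9%) had a summit in either list, beside 56.8%. The synthetase genes are longer than most, with a median length of 2760 bp against 2166 bp over all genes. Among the 17 members of middle length (2167 to 3755 bp), 13 had a summit against IgG, beside 59.9% of the 2551 genes in that length range. How far gene length and the spacing of neighbours set these shares was not tested.

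Against IgG the strength of these summits was close to that of other genes. The median highest score was 29.7 at the cytosolic genes with a summit, 24.9 at the mitochondrial ones and 29.7 over all genes with a summit. Against input these medians were 73.9, 66.5 and 59.7. A summit of score at least 20 was found at 14 of 33 members (42.4%), beside 31.8% of all genes, and one of score at least 100 at 5 members (15.2%), beside 9.82%. These shares include genes with no summit. Among genes with a summit, 14 of 26 members reached 20, a lower share than 4432 of 7259 genes. A score of 100 was reached by 5 of 26 members beside 1370 of 7259 genes. The share of genes with a summit among other parts of the translation machinery lay in the same region, at 85.9% of 92 ribosomal protein genes, 89.0% of 73 mitochondrial ribosomal protein genes and 77.3% of 44 initiation factor genes.

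**Figure D1:**
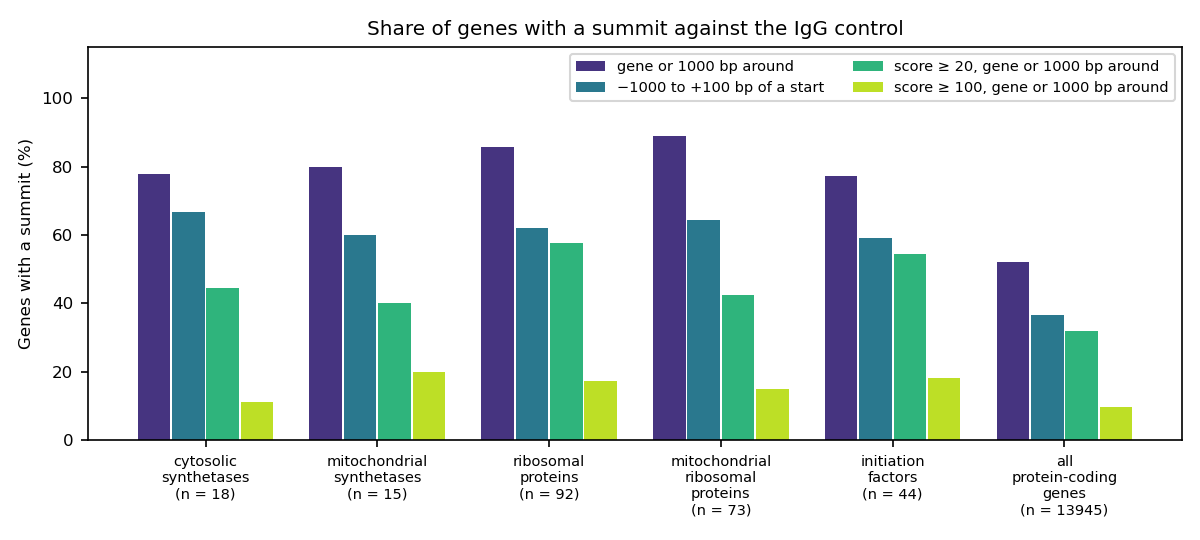
Share of genes (percent, vertical axis) with a summit against the IgG control in each gene group, for any summit in the gene or the 1000 bp to either side, for summits in the promoter window (1000 bp before to 100 bp after a start), and for scores of at least 20 and at least 100. Each translation group stands above all protein-coding genes for the first of these measures, at 77.3% to 89.0% beside 52.1%, while the shares past a score of 100 lie between 11.1% and 20% beside 9.82%.

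A summit near a gene need not sit at its start, because fly genes lie close together. A divergent neighbour, with its start on the opposite strand within 1000 bp upstream, was present for 23 of 33 members (69.7%), beside 36.2% of all genes. This arrangement held for 16 of 18 cytosolic genes (88.9%) and 7 of 15 mitochondrial genes (46.7%). The promoter window, 1000 bp before to 100 bp after a transcript's start, held a summit at 21 members (63.6%), beside 36.6% of all genes. At 23 members (69.7%), beside 42.3%, a summit had the gene's own start as its nearest one. The highest summit was nearest to the gene's own start at 17 of 26 members (65.4%), beside 57.5% of the 7259 genes with a summit, and this share is close to the background. Against input it was 17 of 28 members (60.7%), beside 58.4%. By class the highest summit against IgG had the own start nearest at 8 of 14 cytosolic genes and 9 of 12 mitochondrial genes.

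Members carried 53 summits against IgG, of which 16 lay upstream of the gene, 12 in coding exons, 10 in 5′ untranslated regions, 8 downstream, 5 in introns and 2 in 3′ untranslated regions. The highest summit lay within 50 bp of the gene's own start at 9 of the 26 genes and within 150 bp at 15. A single summit was present at 9 genes, 2 summits at 11, 3 at 3 and 4 at 2, and AspRS had 5. The same counts over all genes and all summits were not computed. These places, distances and numbers of summits therefore describe the members only. In the map of summits along the genes, the largest circles of AlaRS-m, TyrRS-m, GluProRS and LeuRS lie close to the 5′ limits, whereas those of SerRS-m and MetRS lie near the 3′ end.

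**Figure D2:**
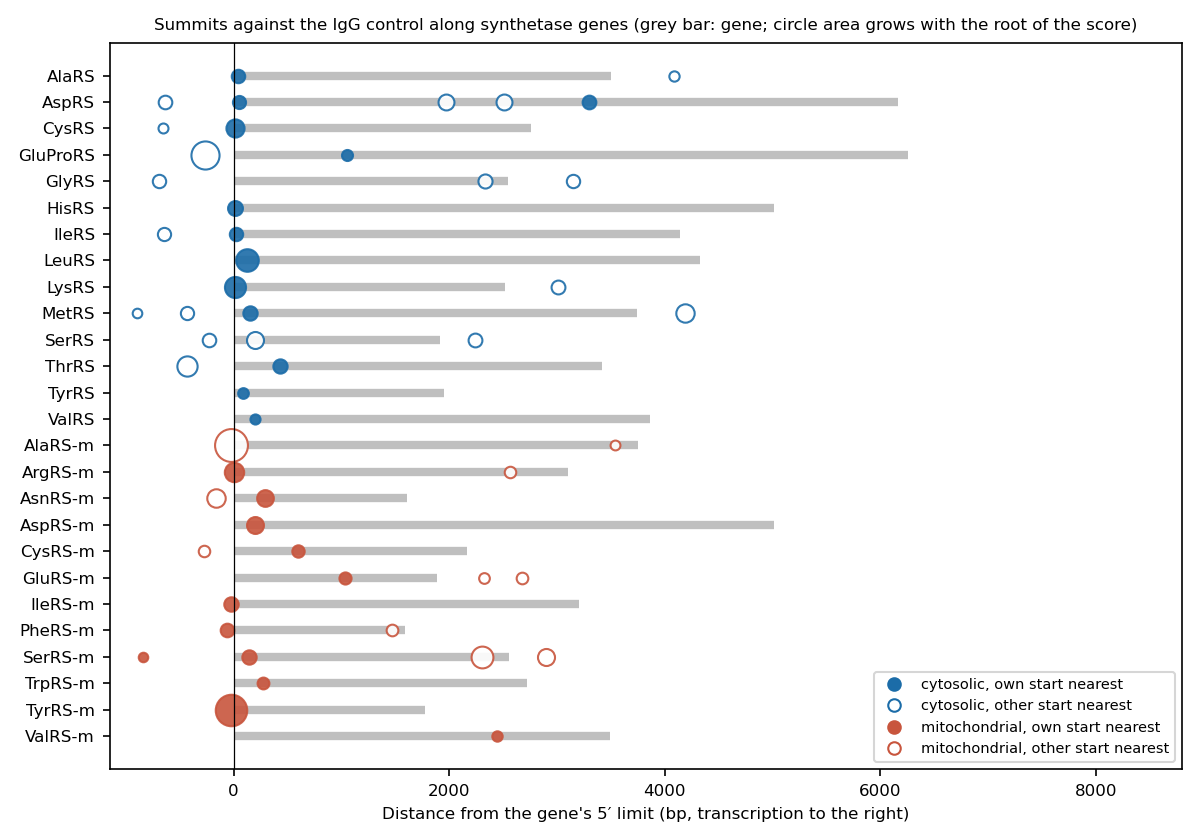
Summits against the IgG control along the 26 synthetase genes that had one, by distance from the gene's 5′ limit (bp, transcription to the right). Grey bars are genes to scale, and circles are summits with an area that grows with the root of the score. Filled circles have the gene's own start as the nearest start. The highest summits of 15 genes lay within 150 bp of one of their own starts, and the share over all genes was not computed.

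Among the mitochondrial genes, AlaRS-m, which encodes the alanyl enzyme of the organelle, had the strongest summit of the family. It scored 580.6 against IgG, 30th in rank of the list, and 1614 against input, 13th in rank. The position, 5146072 on arm 3L of dm6, was identical in both lists, 26 bp upstream of AlaRS-m and 9 bp upstream of Fitm, a gene of fat storage, whose divergent start is 35 bp away. AlaRS-m stood above 99.1% of all genes with a summit by its highest score. A start this close to another leaves no way to assign the summit to 1 of them.

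TyrRS-m, for the mitochondrial tyrosyl enzyme, came next. Its single summit scored 487.1 against IgG and 1184 against input, 46th and 45th in rank. It lay at position 24783525 of arm 2R, 25 bp upstream of the TyrRS-m start, which is 55 bp from the divergent start of CG3589. This gene exceeded 98.7% of genes with a summit.

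SerRS-m, for the mitochondrial seryl enzyme, had 4 summits. The highest, at 103.3, lay at position 15342970 of arm 3R in its 3′ untranslated region. This is 140 bp downstream of a start of Nagk, a gene named for N-acetylglucosamine kinase. At 144 bp downstream of the SerRS-m start the score was only 15.6. The other summits scored 34.6, beyond the 3′ end, and 1.66, 841 bp upstream. The strongest value listed for SerRS-m thus stood at a neighbour's start, and all 4 summits were present in both lists.

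Other mitochondrial genes had their highest summit at the start itself. ArgRS-m, for the arginyl enzyme, had a score of 61.7 at 4 bp downstream, and 125 against input. IleRS-m, for the isoleucyl enzyme, had 16.1 at 24 bp upstream and 40.4 against input. PheRS-m, a single-chain phenylalanyl enzyme, had 12.1 at 58 bp upstream and 66.5 against input. AspRS-m, for the aspartyl enzyme, had 33.8 in an intron 79 bp upstream of the nearest of its starts, and 113 against input. The 4 genes thus scored from 12.1 to 61.7 against IgG, well below AlaRS-m and TyrRS-m at like distances from the start.

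AsnRS-m, for the asparaginyl enzyme, had its highest summit on its neighbour. A score of 49.6 stood 167 bp upstream of its start and 114 bp downstream of that of ste24a, a CAAX protease gene whose divergent start is 53 bp away. A further summit in the coding exon, 295 bp downstream of the AsnRS-m start, scored 31.9. Both were found against input, at 89.3 and 33.9.

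The remaining mitochondrial genes had low scores. CysRS-m, for the cysteinyl enzyme, reached 7.46 in a coding exon 599 bp downstream. GluRS-m, for the glutamyl enzyme, reached 6.71 in a coding exon 1035 bp downstream, and TrpRS-m, for the tryptophanyl enzyme, 5.84 at 273 bp downstream. ValRS-m, for the valyl enzyme, had 2.85 against IgG and 2.66 against input at different places in its coding exons, so no summit was shared. LeuRS-m, for the leucyl enzyme, had a summit against input only, scoring 14.8 at 55 bp upstream of its start. MetRS-m and ProRS-m, for the methionyl and prolyl enzymes, had none in either list.

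Among the cytosolic genes, GluProRS, a fused enzyme that charges both glutamyl and prolyl tRNAs, had the highest score. It was 303.3 against IgG, 144th in rank, and 736 against input, 138th in rank. This summit lay at position 23958659 of arm 3R, 268 bp upstream of GluProRS and 8 bp downstream of the divergent start of AP-1sigma, an adaptor subunit of clathrin coats. The only summit nearest to a start of GluProRS scored 4.06, in a coding exon 1056 bp downstream, and was listed against IgG only.

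LeuRS and LysRS had strong summits with their own start nearest. Divergent starts lay close by, that of CG17593 at 216 bp upstream of LeuRS and that of Hecw at 62 bp upstream of a LysRS start. LeuRS, for the leucyl enzyme, scored 119.6 at position 3514527 of arm 2L, in an intron 129 bp downstream of its start and 267 against input. LysRS, for the lysyl enzyme, scored 89.4 at position 9608869 of X, in the 5′ untranslated region 15 bp downstream and 206.5 against input. CysRS, for the cysteinyl enzyme, scored 46.1 at 10 bp downstream and 113 against input. These were the 3 highest cytosolic scores with the own start nearest.

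At ThrRS, MetRS and SerRS, genes of the threonyl, methionyl and seryl enzymes, the highest summit was nearer to a neighbour. ThrRS scored 74.6 at 428 bp upstream, which is 38 bp upstream of the start of Patsas, a palmitoyltransferase gene, and 15.2 at 102 bp upstream of a further start of its own. MetRS scored 48.6 beyond its 3′ end, 210 bp downstream of the CG15099 start, and 15.6 at 148 bp downstream of its own. SerRS scored 34.2 in its 5′ untranslated region, 62 bp from a start of its own and 29 bp from one of the divergent CG17260. In each case a summit of score at least 15 lay within 150 bp of a start of the synthetase gene.

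AspRS, for the aspartyl enzyme, held 5 summits against IgG, all at identical positions in the list against input. A further summit, of score 12.5 in a coding exon, was listed against input only, and its nearest start was that of vg, the vestigial gene of wing development. The highest pair, at 25.3 and 25.2, stood in introns, 141 bp and 169 bp from different starts of Nmda1 that lie within the span of AspRS. Those at its own starts scored 12.5 and 10.1. HisRS, for the histidyl enzyme, scored 18.7 at 12 bp downstream of its start and 90.0 against input. A start of Bx, a LIM-domain gene, lay at the same distance from this summit.

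The remaining cytosolic genes had lower scores. GlyRS, for the glycyl enzyme, reached 14.2 in a coding exon 438 bp upstream of a start of Ctps, the CTP synthase gene. No summit was nearest to the GlyRS start. AlaRS, for the alanyl enzyme, reached 11.4 at 40 bp downstream and IleRS, for the isoleucyl enzyme, 11.0 at 18 bp downstream. TyrRS reached 3.41 and ValRS 2.44, the latter against IgG only. ArgRS had a summit against input only, 21.0 at 11 bp from the start of the divergent CG8578, and AsnRS likewise, 5.13 at 209 bp downstream. GlnRS and TrpRS, for the glutaminyl and tryptophanyl enzymes, had none in either list.

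The other summits at members with a stronger one were mostly weak and nearer to neighbours. At AspRS a score of 12.0 stood 29 bp from the start of Lfg, at GlyRS 11.0 stood 269 bp from that of sstn, and at IleRS 10.4 stood 173 bp from that of Hem, a subunit gene of the actin-regulating WAVE complex. At LysRS 13.1 stood 91 bp from Lst8, a TOR complex subunit gene, at SerRS 12.9 stood 187 bp from CG17258, and at MetRS 10.5 stood 183 bp from CG15084. Scores from 2.04 to 5.44 had as nearest starts CG17294 at AlaRS, CG30094 at CysRS, Gen at AlaRS-m, wtrw at ArgRS-m, O-fut1 at CysRS-m, Serinc at GluRS-m and St4 at PheRS-m. Against input only, AsnRS had 3.24 near Polr1D. None of these neighbour summits was the highest of its gene against IgG. Against input the summit near Hem was the highest of IleRS, at 22.5 beside 14.3 near its own start. GlyRS had its highest against input, 27.0, at 152 bp downstream of another Ctps start.

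**Figure D3:**
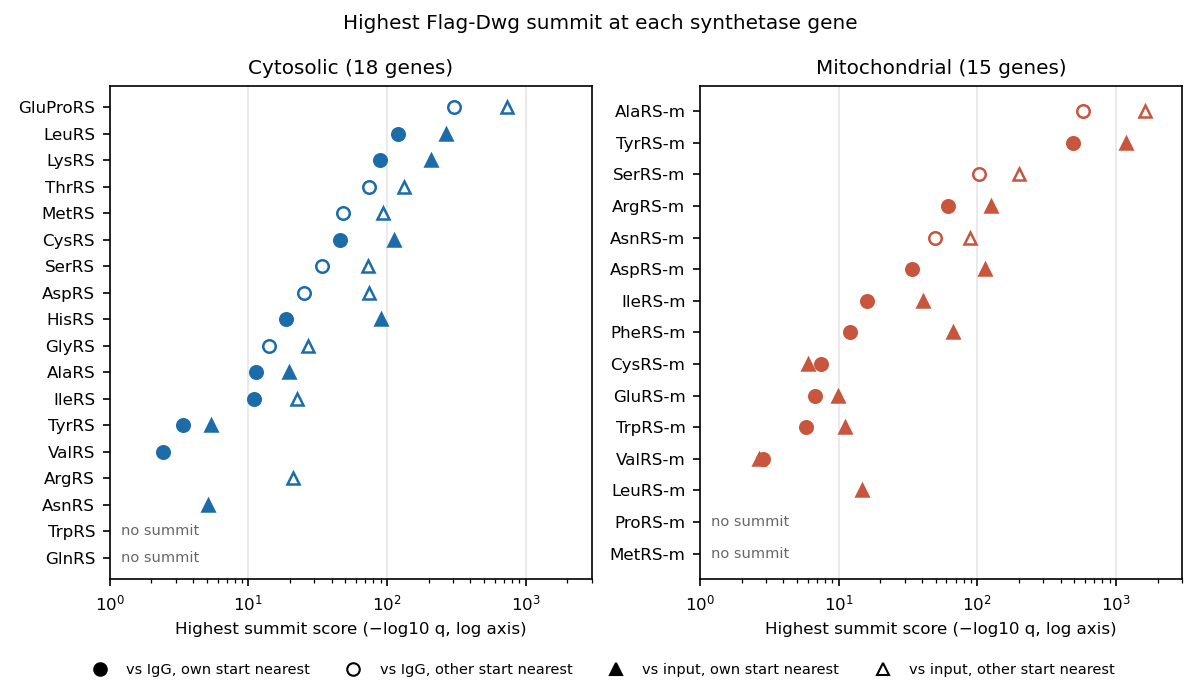
Highest summit score (−log10 q, log axis) of each cytosolic (left) and mitochondrial (right) synthetase gene, with circles for the list against IgG and triangles for the list against input, filled where the nearest start belongs to the gene. Scores against IgG run from 2.44 to 303.3 for cytosolic genes and from 2.85 to 580.6 for mitochondrial genes, and 4 genes have no summit in either list.

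Both classes therefore spanned low and high scores, and their ranges overlapped almost throughout. For 12 amino acids both a cytosolic and a mitochondrial gene were in the set. Highest scores were compared, wherever in the gene or the 1000 bp around it the summit lay. In 7 of these pairs both genes had a score against IgG, and the mitochondrial one was the higher in 6, with the cysteinyl pair as the exception. In these pairs the highest summits of AlaRS-m, AspRS, SerRS and SerRS-m stood nearer to a neighbour's start. At 144 bp downstream of its own start SerRS-m scored 15.6, below the 34.2 of SerRS, whose summit lay nearer to CG17260. The valyl pair was nearly even, at 2.44 and 2.85. In the other 5 pairs 1 gene had no summit in this list: the cytosolic one for the arginyl, asparaginyl and tryptophanyl pairs and the mitochondrial one for the leucyl and methionyl pairs. The alanyl pair had 11.4 and 580.6, and the tyrosyl pair 3.41 and 487.1, so the strongest mitochondrial sites had weak cytosolic partners. With no replicate values this order carries no error.

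The choice of control moved few positions. Of the 53 member summits against IgG, 46 had a counterpart within 100 bp in the list against input (86.8%, beside 86.9% of all summits), with at most 5 bp between them. The 7 summits found against IgG only included those of ValRS and ValRS-m, and 8 of the 54 summits against input had no counterpart. In all, 24 of 33 genes had a shared summit (72.7%), beside 50.1% of all genes. Both lists rest on the same ChIP libraries, so this compares the controls and is not a replicate of the ChIP.

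Of 23 genes of the wider pathway, 22 were matched in the annotation, 19 had a summit against IgG (86.4%, beside 52.1% of all genes) and 10 of these had their own start nearest to the highest one (52.6%, beside 57.5%). AIMP1 and AIMP2, scaffold subunits of the multi-synthetase complex, scored 52.1 at 30 bp upstream and 47.3 at 109 bp downstream of their starts. AIMP3, a further scaffold subunit, had a summit against input only, at 23.7. The cytosolic phenylalanyl subunits scored 33.3 (alpha-PheRS) and 7.01 (beta-PheRS), and Slimp 12.7. The highest alpha-PheRS summit lay 353 bp upstream of its own start and 116 bp from that of CG2129.

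The elongation factors, which bring charged tRNA to the ribosome or move it along, ranged widely. The mitochondrial factor mEFTu1 scored 448 at 178 bp from the start of mip120, and eEF2 scored 359 at 147 bp from that of CG2225. Scores of 168 for eEF1alpha2, 122 for eEF1alpha1, 122 for mEFTs and 31.8 for mEFG1 also stood nearer to a neighbour's start, those of Tbca, ERp60, CG15142 and CG13784. The subunit gene eEF1beta scored 139 at 40 bp downstream of its own start. With their own start nearest too, eEF1delta scored 19.9 at 2357 bp downstream, eEF1gamma 16.6 at 65 bp downstream and mEFTu2 13.0 at 192 bp downstream. All were below the median of 29.7 over genes with a summit, and mEFTu2 had no summit against input. Dtd, whose product removes D-amino acids from tRNA, scored 3.24 near RpL24-like. Of the genes for the GatCAB amidotransferase, which corrects the amino acid on mitochondrial glutaminyl tRNA, GatB scored 195 at 10 bp downstream of its start and GatA 297 near NP15.6, while GatC had none. Gcn2, the sensor of uncharged tRNA, had no summit in either list, and crc, the fly ATF4, scored 30.7 at 84 bp upstream of a start. A start of CG46314 lay at the same distance from the crc summit.

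The words shown above were then counted in the 101 bp centred on each summit and in a window of that size 350 bp away. GAATGGCA or its reverse complement was present at 8.01% of the 799 summits with a score of at least 100 and at 0.501% of the windows aside. AACAGCTG or its reverse complement was present at 8.39% and 1.25%. Over all 10950 summits the shares were 1.54% beside 0.447% and 2.98% beside 0.950%. Both words were chosen on the class of at least 100, so their excess there was fixed by the choice. In the classes not used for it, the first word was at 0.966% of summits below a score of 5 and at 1.93% between 50 and 100, and the second at 1.33% and 4.46%.

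At synthetase genes the first word was present at 3 of 5 summits scoring at least 100, beside 8.01% of all such summits, and at 0 of 48 below. In the classes below 100 its share over all summits was 0.757% to 1.93%, and 0 of 48 is close to that. Those 5 summits were among the 799 on which the word was chosen, so this is a description only. The 3 with the first word were the summits of AlaRS-m, TyrRS-m and GluProRS, the 3 highest of the family, and GluProRS carried it once on each strand. LeuRS and SerRS-m, at 119.6 and 103.3, had no copy of either word. The second word was present at 5 of the 53 member summits (9.43%, beside 2.98% of all summits) and at 2 of their 53 windows aside. These 5 were among the 26 highest summits, those of AlaRS-m, TyrRS-m, ThrRS, ArgRS-m and CysRS, with scores from 46.1 to 580.6. In AlaRS-m the second word lay outside the stretch printed above. A match of letters is a description and not a bound site.

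**Figure D4:**
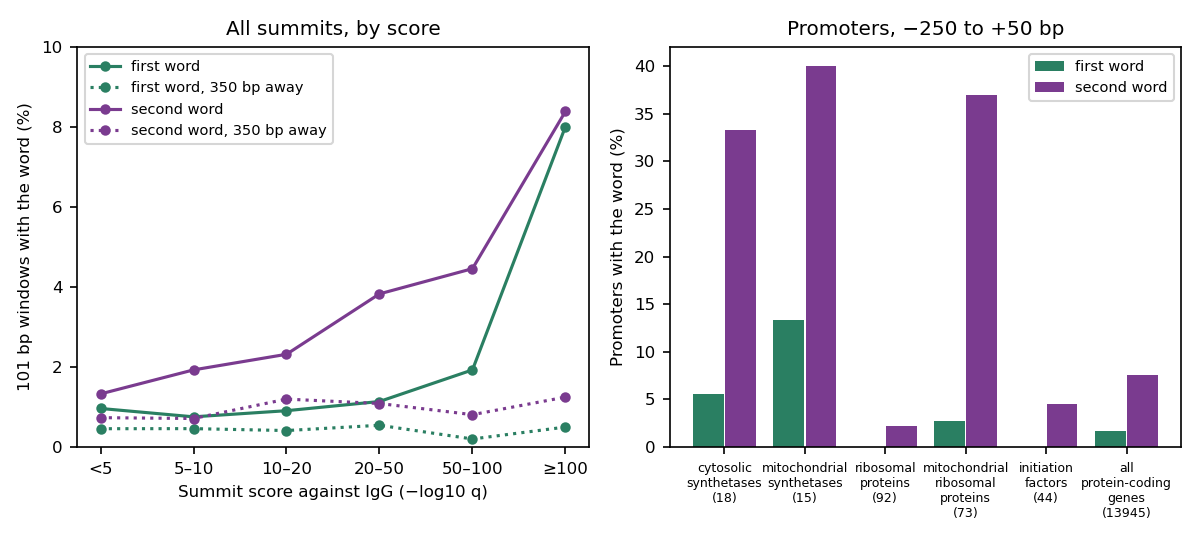
Left, share of 101 bp windows (percent) with each word at all summits against IgG by score class (solid lines) and 350 bp away (dotted lines), where the first word is the one that AlaRS-m, TyrRS-m and GluProRS share. Right, share of promoters (percent, 250 bp before to 50 bp after the start) with each word by gene group, the number of genes in brackets, with the second word in 33.3% of cytosolic and 40% of mitochondrial synthetase promoters beside 7.62% of all. The groups are not matched for divergent neighbours, whose starts can lie in these promoters.

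Promoters, taken as 250 bp before to 50 bp after the gene's start, gave the second word in 12 of 33 synthetase genes (36.4%), beside 7.62% of all genes. Cytosolic genes had it in 6 of 18 (33.3%) and mitochondrial genes in 6 of 15 (40%). Mitochondrial ribosomal protein genes had it in 37.0%, whereas ribosomal protein genes had it in 2.17% and initiation factor genes in 4.55%. The shorter core CAGCTG, which the word contains and which reads alike on both strands, was present in 48.5% of synthetase promoters beside 17.7% of all. The first word was present in 3 synthetase promoters (9.09%, beside 1.74%), those with the 3 strongest summits. A promoter taken this way can include the start of a divergent neighbour. Divergent starts within 1000 bp upstream were present for 69.7% of members and 36.2% of all genes. These shares were not matched for that, and whether a copy belongs to the synthetase gene or its neighbour was not tested.

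Of the 7 synthetase genes with no summit against IgG, 4 carried the second word in their promoters. The share among all genes with no summit was not computed. ArgRS and LeuRS-m among them had a summit against input, whereas TrpRS and MetRS-m had none in either list. Those 4 stretches are printed to set beside the examples under summits, again along the gene's strand and with the word in capitals. ArgRS is at chrX:15844175-15844202 and TrpRS at chr3R:9267021-9267048, both on the minus strand. The TrpRS stretch lies past the divergent start of Vps16A, and all 28 of its bases are annotated as untranslated sequence. LeuRS-m is at chr3L:4825851-4825878 on the plus strand, where overlapping copies on both strands make 1 longer palindrome, and MetRS-m at chr3R:14259979-14260006 on the minus strand.
ArgRS: gtgacatcacCAGCTGTTatcgttatcg
TrpRS: tttgcagcgcAACAGCTGattttccaga
LeuRS-m: gatgcagagaAACAGCTGTTcgattgta
MetRS-m: actggtggcaCAGCTGTTcaatgttata

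Words known from fly promoters were counted at member summits too, and most of these small counts are close to the share over all summits. TATCGATA, the DNA replication-related element, was present at 1 of 53 member summits beside 0.731% of all summits, at an AspRS start. GGTCACAC, a core promoter word called Motif 1, was present at 0 of 53 beside 2.25%. GAGAGA was present at 2 of 53 beside 4.26%, and CGATA at 8 of 53 (15.1%) beside 12.9%. In the promoters of the 33 members, TATCGATA was present in 15.2% beside 9.37% of all promoters, GGTCACAC in 12.1% beside 7.71%, CGATA in 63.6% beside 47.5% and GAGAGA in 3.03% beside 12.3%. CGCCGC, the 6-letter word with the largest excess over all summits, was present at 3.77% of member summits beside 12.5%. The median GC content was 50.5% at member summits and 43.6% aside, beside 52.5% and 40.6% over all summits.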

How the data were processed

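Per the study's methods, reads were trimmed with Trim Galore 0.6.4, mapped to dm6 with bowtie2 2.3.5.1 in local mode, filtered to unique reads with SAMtools 1.6 and given to MACS2 2.2.6 as paired reads. Whether replicates were pooled is not given in the sources used here. The deposited lists hold 1 bp summits with the −log10 q-value of each, computed by the authors, down to 1.31 against IgG and 1.30 against input.

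Genes and transcripts came from Ensembl release 115 and sequence from NCBI's copy of the assembly. A summit belonged to a gene within its limits or 1000 bp around. Its nearest start was that of any protein-coding transcript. Summits of both lists within 100 bp were shared. Highest scores, places and letter matches on both strands were then tabulated with Python 3.11.15 and NumPy 2.4.6, and assignment and word counts were tested on simulated data. All members of the symbol rule, the genes with the nearest start of a member summit and the pathway genes matched in the annotation are named. The members, gene lists and words were chosen with earlier results of these data known, so counts are set beside all genes without tests.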

Additional observations from a re-analysis of the deposited data

How the results depend on the processing

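Of 49 values computed under other settings, 41 stayed within 1.5 times the main count or close to the main value, and 8 moved. With scores of at least 20, the members with a summit fell from 26 to 14, the cytosolic ones from 14 to 8, the mitochondrial ones from 12 to 6 and those with a summit in the promoter window from 21 to 11. Members whose highest summit was nearest to their own start numbered 17, but 11 with scores of at least 10 and 6 with scores of at least 20. The median highest score of 29.5 became 73.2 against input, whose scores are on another scale, and 34.0 with 2000 bp around the gene. No paired analysis was possible because the summit lists hold no value per library, and for the same reason no replicate could be left out. The word scan at summits scoring at least 100, with 8 letters in place of 6, was chosen after seeing the data. The lists do not show regions below the peak threshold, so a gene with no summit is one with no called peak.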

Other observations

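The 8-letter word GAATGGCA was also counted at the strong summits of the other translation genes, those scoring at least 100. It was present at 2 of 16 such summits of ribosomal protein genes, 1 of 11 of mitochondrial ribosomal protein genes and 0 of 8 of initiation factor genes, beside 61 of 747 (8.17%) over all protein-coding genes. AACAGCTG was present at 1 of 16, 2 of 11 and 0 of 8, beside 65 of 747 (8.70%). Counts this small do not order the groups. GluRS-m and TyrRS, for unlike amino acids and compartments, are tandem neighbours on chromosome arm 3L, and both had only weak summits, at 6.71 and 3.41.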
